A study of Mus musculus with 8 samples.

Results

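The carboxylesterases of the Ces1 and Ces2 families were followed in epithelial cells of the mouse colon, through 10 genes: Ces1d, Ces1e, Ces1f and Ces1g of the Ces1 family and Ces2a, Ces2b, Ces2c, Ces2e, Ces2f and Ces2g of the Ces2 family. The 10 genes were picked by symbol out of the 35963 gene symbols in the count table, after their levels in the genotype groups were known. Their differences between genotypes are therefore given below as a description, with no test. All 10 passed the filter on low counts, which left 15893 genes.

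RNA was sequenced from epithelial cells that a release buffer had freed from the flushed colon, from its proximal part, in mice 4 weeks old. The 4 knockout libraries came from mice with the genotype Ccna2 fl/fl vil-Cre (labelled Ccna2-KO, and Ccna2-/-), in which the villin promoter drives Cre in the intestinal epithelium. The 4 control libraries came from Ccna2 fl/fl mice without that Cre; the sample labels call them wild type. The floxed Ccna2 allele was thus shared by both groups. No label ties a library to a single mouse, so the spread between libraries may be partly technical.

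Carboxylesterases are serine hydrolases of the endoplasmic reticulum that split ester, thioester and amide bonds. In the intestine and liver they hydrolyse ester drugs and prodrugs, and several of them also hydrolyse triacylglycerols, diacylglycerols, cholesteryl esters or retinyl esters. The mouse has many more of these genes than the human, as tandem copies on chromosome 8, and the gene names follow the order of the copies.

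In the RefSeq annotation of GRCm38.p6, the Ces1 genes studied lie at chr8:93166072-93337209 on the minus strand and the Ces2 genes at chr8:104734003-104969537 on the plus strand. The Ces1 stretch covers 171.1 kb, the Ces2 stretch 235.5 kb, and 11.4 Mb separates them. Each Ces1 gene has 14 exons in the matched GENCODE transcripts, and the Ces2 genes have between 11 and 13.

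The RefSeq promoter table held 7 of the 10 genes: Ces1e, Ces1g, Ces2a, Ces2c, Ces2e, Ces2f and Ces2g. The sequences below show what the upstream regions of neighbouring Ces2 copies still share, since these copies did not all differ alike between the genotypes. Each is the stretch of 150 bases just upstream of the table's start site, 5′ to 3′ on the plus strand. Capitals mark ACTTTGCCC, the longest run that a script found in 4 of the 5 Ces2 promoters. The window of Ces2a is chr8:104733853-104734002, that of Ces2c chr8:104846918-104847067, that of Ces2e chr8:104926110-104926259 and that of Ces2f chr8:104947206-104947355.
Ces2a: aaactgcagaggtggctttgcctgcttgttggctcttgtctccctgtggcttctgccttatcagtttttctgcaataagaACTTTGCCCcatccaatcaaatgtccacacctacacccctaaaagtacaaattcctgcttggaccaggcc
Ces2c: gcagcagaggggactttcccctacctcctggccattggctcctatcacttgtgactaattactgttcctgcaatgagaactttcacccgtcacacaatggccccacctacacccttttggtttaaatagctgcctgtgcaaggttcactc
Ces2e: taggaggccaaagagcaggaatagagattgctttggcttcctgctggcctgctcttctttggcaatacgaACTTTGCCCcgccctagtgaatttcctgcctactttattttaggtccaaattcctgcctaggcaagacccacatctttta
Ces2f: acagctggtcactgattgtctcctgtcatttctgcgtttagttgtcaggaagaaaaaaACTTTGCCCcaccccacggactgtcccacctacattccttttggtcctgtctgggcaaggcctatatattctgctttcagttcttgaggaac

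Counted from the promoter table's start site, the marked run began at base -70 in Ces2a, -80 in Ces2e, -92 in Ces2f and -117 in Ces2g. The annotated Ces2g gene starts earlier, at 104961596, inside that gene's window (chr8:104961568-104961717), so there the run lies just within the annotated gene. In Ces2a, Ces2e and Ces2f it sat inside a longer shared run, AACTTTGCCCC. The longer run was found, on either strand, in 6 of 32851 promoters of the table (0.0183%) and the shorter one in 86 (0.262%). Ces2c and the 2 Ces1 promoters held neither. Both runs were searched because these promoters shared them. Other shared runs were not searched over all promoters: Ces2c and Ces2g shared a run of 19 bases, and Ces2a, Ces2e and Ces2g another of 11 bases. TATAAA, the core of the TATA box, was also searched on either strand. It was found in the promoter of Ces1g alone among the 7, against 13.6% of all promoters. In Ces1g it lay at bases -26 to -21 on the strand opposite to the gene, so it does not read as TATAAA along the gene.

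The labels were first checked against Ccna2, which encodes cyclin A2 and is the targeted gene. Its normalized level in CPM (counts scaled to a common library size, itself adjusted by edgeR's TMM method) was 54.2, 25.9, 11.9 and 18.3 in control replicates 1 to 4, and 18.2, 26.6, 26.6 and 16.2 in Ccna2-KO replicates 1 to 4. The groups overlapped, so the level of Ccna2 did not separate the labels (log2 fold change -0.33 ± 0.41 SE, adjusted p = 0.673, edgeR's quasi-likelihood test). The sign rested on control replicate 1: without it the estimate was 0.24 (adjusted p = 0.565), while with the number set as a term it was -0.71 (adjusted p = 0.133). Ccna2 was higher in the high number set, defined below (log2 fold change 1.06, adjusted p = 0.0374, edgeR with genotype in the fit). The floxed exons were not named in the sources used here, and counts summed over the gene also take reads outside them. Every direction below is therefore between the libraries labelled Ccna2-KO and those labelled as controls.

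Library totals over named genes ran from 25960180 to 33028486 counts. The library names carry numbers that fall in a low set (595 to 598: control replicates 2, 3 and 4 and Ccna2-KO replicate 4) and a high set (621 to 641: control replicate 1 and Ccna2-KO replicates 1, 2 and 3). What the numbers stand for was not given in the sources used here. Control replicate 1 stood apart from the other libraries, and without it the number of genes called between genotypes went from 1924 to 4627 of all tested. A gene is called here when its p, adjusted over all genes by the Benjamini-Hochberg method, is below 0.05.

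Colonic epithelial markers such as Epcam and Krt20 were abundant, with summed levels of 39880 to 44730 CPM in controls and 45360 to 49540 CPM in Ccna2-KO libraries. None of the 15 passed the test by edgeR (3 were higher and 2 lower at an unadjusted p below 0.05), while 2 rose with the number set as a term, 2 by DESeq2 and none by limma voom. Leukocyte markers moved with genotype: 8 of 13 tested fell and none rose, and their summed CPM was 16.1 to 27.5 in the Ccna2-KO group, 30.4 in control replicate 1 and between 50.6 and 106 in the remaining controls. With any 1 library other than control replicate 1 left out, 4 to 6 fell, and with the replicate block 3. In the main fit the 5 not called were Ms4a1, Lyz2, Csf1r, Adgre1 and Itgam, with log2 fold changes between -0.38 and 0.21. The part of leukocytes in the carboxylesterase values was not tested.

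Both families held genes that were separate between the groups and genes that were not. In Ccna2-KO libraries Ces1d, Ces1e, Ces2a, Ces2b and Ces2e lay below every control library, and the other 5 genes overlapped. No gene lay above every control. The 5 separated genes were also the 5 called lower in the main fit. Over 16 alternative ways of processing, from 3 to 6 of the 10 were called lower. Of all genes, 12.1% were called in either direction and 5.71% lower, and 19.0% had groups that did not overlap, 9.6% with every Ccna2-KO library below every control. Those counts describe genes chosen for this contrast, and nothing is read from them. The median log2 fold change was -0.46 over the 10 genes and -0.01 over all genes tested.

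Ces1d, a triacylglycerol hydrolase first described in liver, showed the widest difference. Its level was 41.2, 44.5, 42.1 and 69.7 CPM in control replicates 1 to 4 and 14.1, 14.2, 13.0 and 16.3 CPM in Ccna2-KO replicates 1 to 4. The groups were far apart, and only control replicate 4 was well above its group. The means were 49.4 ± 13.6 (SD, n = 4) and 14.4 ± 1.36 CPM (SD, n = 4), so that 29.2% of the control level was left (log2 fold change -1.78 ± 0.18 SE). In a bulk sample, fewer cells that express a gene and less RNA per cell cannot be told apart.

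Ces1e, known as esterase-22 or egasyn, which holds β-glucuronidase in the endoplasmic reticulum, was measured at 18.4, 17.5, 16.3 and 21.6 CPM in controls. In Ccna2-KO libraries it was at 7.62, 10.0, 9.55 and 8.55 CPM. The libraries of each group were close together and the groups did not overlap. The mean went from 18.4 ± 2.28 to 8.94 ± 1.08 CPM (SD, n = 4 each), 48.5% of control (log2 fold change -1.04 ± 0.14 SE).

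The counts of Ces1e came from 2 transcripts that differed unequally. The curated RefSeq transcript, with 59.5% of the gene's count, had 9.83 ± 1.54 CPM in controls and 6.40 ± 0.991 CPM in Ccna2-KO libraries (SD, n = 4 each). The predicted transcript had 8.61 ± 2.50 and 2.54 ± 0.630 CPM. Its share of the Ces1e count was 36.0% to 54.4% in controls and 20.6% to 34.8% in Ccna2-KO libraries, so the shares did not overlap. Counts are divided between transcripts of one gene by the estimation step, which adds an error that the spread between libraries does not hold.

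Ces1f, an endoplasmic reticulum lipase related to Ces1d, was at 108, 149, 154 and 178 CPM in controls. In Ccna2-KO libraries it was at 150, 149, 141 and 145 CPM, inside the control range. The means were 147 ± 28.8 and 146 ± 3.91 CPM (SD, n = 4 each; log2 fold change -0.01 ± 0.14 SE). The controls spread over 19.6% of their mean (coefficient of variation) and the Ccna2-KO libraries over 2.67%.

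Ces1g, an esterase linked to lipid handling in liver and intestine, was at 94.7, 191, 183 and 174 CPM in controls and at 190, 188, 276 and 144 CPM in Ccna2-KO libraries. Control replicate 1 was the lowest of all 8 and Ccna2-KO replicate 3 the highest, and the groups overlapped. The means were 161 ± 44.6 and 200 ± 55.5 CPM (SD, n = 4 each; log2 fold change 0.31 ± 0.25 SE). Without Ccna2-KO replicate 3 the estimate was 0.12, and without control replicate 1 it was 0.13. Ces1g was the only one of the 10 with a positive estimate in this fit; with the number set as a term, Ces1f (0.15) and Ces2f (0.13) were positive too.

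Ces2a, a diacylglycerol and triacylglycerol hydrolase of liver and intestine, was at 277, 319, 515 and 422 CPM in controls. In Ccna2-KO libraries it was at 175, 140, 160 and 251 CPM. The highest Ccna2-KO library, replicate 4, was close to the lowest control, replicate 1, without reaching it. The mean went from 383 ± 107 to 182 ± 48.6 CPM (SD, n = 4 each), 47.4% of control (log2 fold change -1.08 ± 0.24 SE).

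Ces2b was at 6.76, 12.5, 14.0 and 12.8 CPM in controls and at 4.99, 4.17, 3.75 and 4.82 CPM in Ccna2-KO libraries. Control replicate 1 was again the lowest control, and the groups did not overlap. The means were 11.5 ± 3.23 and 4.43 ± 0.578 CPM (SD, n = 4 each), which left 38.5% of control (log2 fold change -1.38 ± 0.23 SE). The whole count of Ces2b was assigned to a predicted transcript and none to the curated one.

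Ces2c, which hydrolyses triacylglycerols and diacylglycerols in the small intestine and activates ester prodrugs, had the highest level of the 10. It was at 394.5, 576, 670.0 and 493 CPM in controls and at 388, 346, 386.5 and 419.5 CPM in Ccna2-KO libraries. Only control replicate 1 lay within the Ccna2-KO range. The means were 533 ± 118 and 385 ± 30.2 CPM (SD, n = 4 each; log2 fold change -0.47 ± 0.16 SE).

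Ces2e, an esterase that hydrolyses pyrethroids, was at 305, 410.4, 425 and 355.5 CPM in controls and at 295, 247, 280.3 and 272 CPM in Ccna2-KO libraries. The groups were separate by a narrow gap, between control replicate 1 and Ccna2-KO replicate 1. The means were 374 ± 54.7 and 273 ± 20.2 CPM (SD, n = 4 each), 73.1% of control (log2 fold change -0.45 ± 0.13 SE). Both curated transcripts of Ces2e, with 89.8% and 10.2% of the count, were lower in every Ccna2-KO library than in every control.

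Ces2f was near the lower limit of what these libraries measure. Its level was 1.29, 3.31, 2.49 and 2.27 CPM in controls and 1.62, 2.10, 1.75 and 2.31 CPM in Ccna2-KO libraries, from 37 to 83 counts a library. The groups overlapped, and the log2 fold change was -0.27 ± 0.29 SE, but 0.13 with the number set as a term and -0.06 without control replicate 2. Ces2g was at 28.0, 13.5, 16.9 and 15.1 CPM in controls and at 18.2, 15.8, 16.6 and 16.0 CPM in Ccna2-KO libraries. Here control replicate 1 was the highest of the 8 libraries, whereas it was the lowest of the 8 for Ces1g. The groups overlapped, and the log2 fold change was -0.14 ± 0.22 SE, but 0.13 without control replicate 1.

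**Figure D1:**
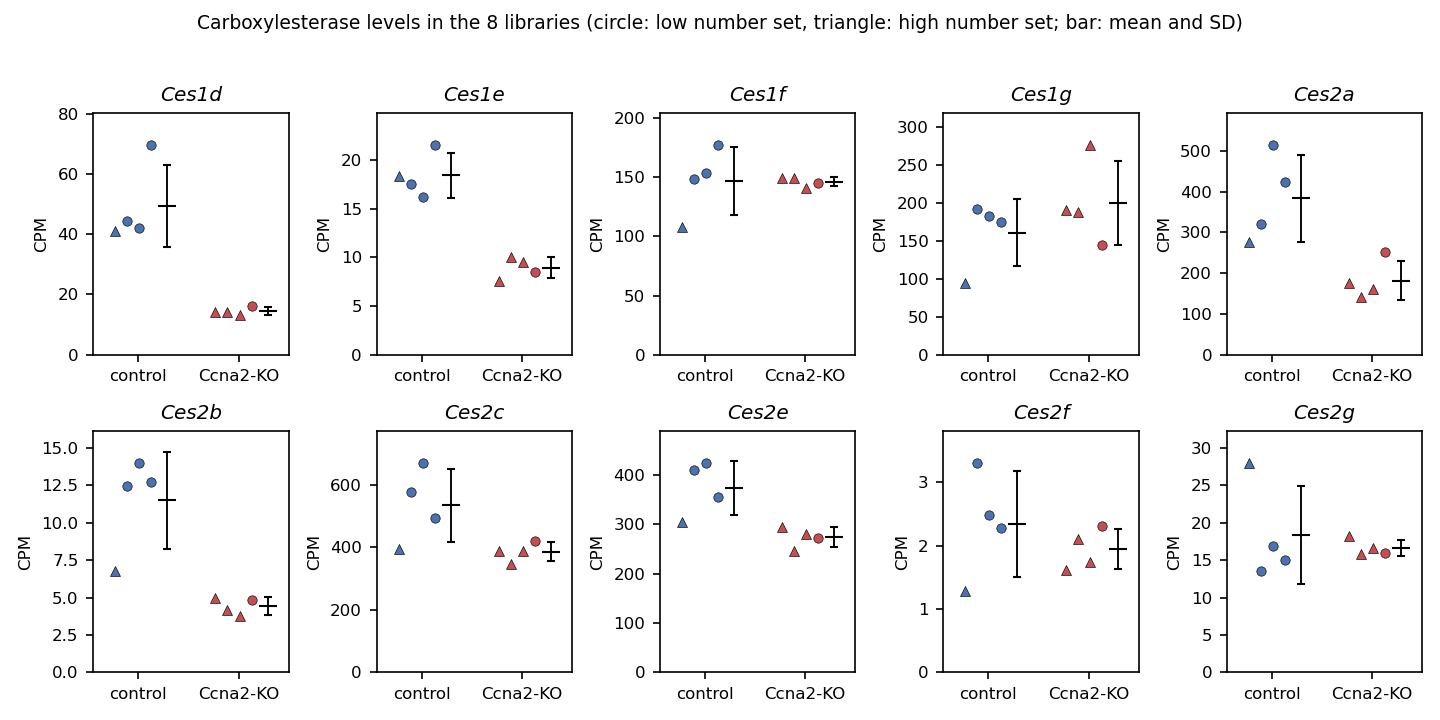
Level of each gene (CPM, linear axis from 0) in the 4 control libraries (blue) and the 4 Ccna2-KO libraries (red), with circles for the low and triangles for the high set of library numbers, and the mean and SD beside each group. The Ccna2-KO libraries lie below all controls for Ces1d, Ces1e, Ces2a, Ces2b and Ces2e, and the groups overlap for the other 5 genes.

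Along the chromosome, the first 2 genes of each stretch were separate between the groups and the last 2 overlapped. In the Ces1 stretch Ces1d and Ces1e were lower, while the next copies, Ces1f and Ces1g, had estimates of -0.01 and 0.31. In the Ces2 stretch the estimates were -1.08 for Ces2a, -1.38 for Ces2b, -0.47 for Ces2c and -0.45 for Ces2e. The last copies, Ces2f and Ces2g, had -0.27 and -0.14. The estimates of Ces1f, Ces2f and Ces2g changed sign in some alternatives. The order of genes on the chromosome was not used to choose them, but this pattern was seen after the values and has no test.

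The transcribed pseudogene Ces2d-ps, which lies between Ces2c and Ces2e and is not one of the 10, was at 6.45, 11.6, 14.5 and 16.9 CPM in controls. In Ccna2-KO libraries it was at 3.88, 3.75, 3.90 and 9.80 CPM. Ccna2-KO replicate 4 stood with the controls and the groups overlapped (log2 fold change -1.22 ± 0.39 SE, adjusted p = 0.0731, edgeR's quasi-likelihood test). With the number set as a term it fell (log2 fold change -0.65, adjusted p = 0.0219). Its transcript holds many of the letters of Ces2c: 50.2% of the 31-base words of Ces2c are in Ces2d-ps too. Reads from the abundant Ces2c could thus be divided between them, and the value of Ces2d-ps is uncertain. The other 9 genes of the 10 share between 4.64% and 12.0% of such words with any other carboxylesterase. These words were counted in curated transcripts only. For Ces2b and Ces2f the curated transcript held none of the count, so the shares may not apply to the predicted transcripts that did.

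**Figure D2:**
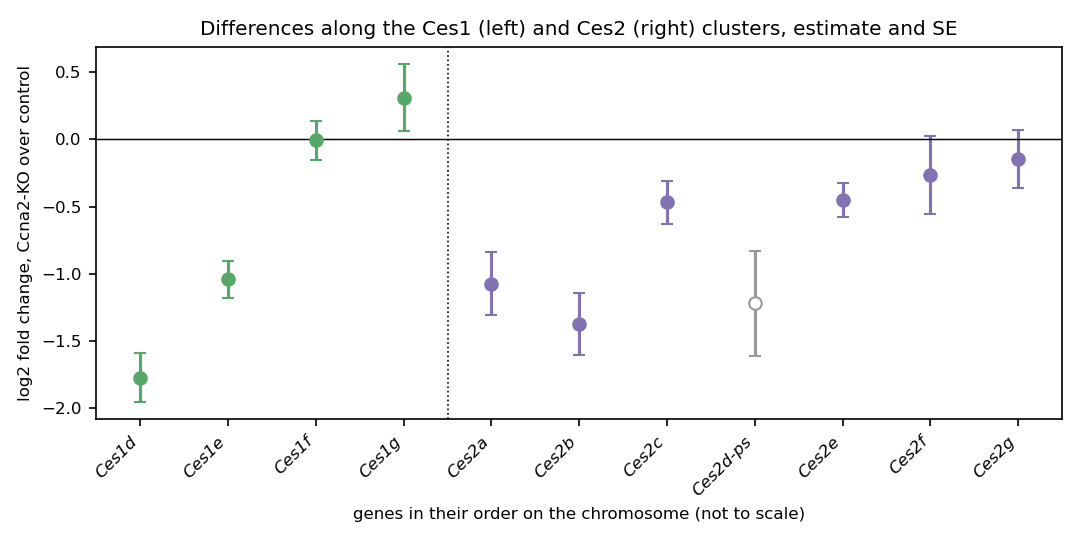
Log2 fold change of each gene, Ccna2-KO over control, with its SE, in the order of the genes on chromosome 8 (not to scale); green for Ces1, purple for Ces2, and an open grey point for the pseudogene Ces2d-ps. Ces1d at -1.78 is the lowest and Ces1g at 0.31 the highest estimate.

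For the neighbouring genes, the 2 stretches were widened to take in the other carboxylesterase genes, to chr8:93020214-93535879 and chr8:104734003-105150109. Genes within 250 kb of these wider stretches were tested in the same fit, in which 12.1% of all genes were called. Beside the wider Ces1 stretch 2 genes were tested and none passed. Around the wider Ces2 stretch 20 genes were tested, with a median log2 fold change of -0.03, and none rose. Fhod1, an actin-nucleating formin, fell to 36.6 CPM from 54.2 in controls (log2 fold change -0.57 ± 0.16 SE, adjusted p = 0.0447, edgeR's quasi-likelihood test). It starts at 105329160, more than 250 kb past the end of Ces2g at 104969537.

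Summed by family, the 4 Ces1 genes overlapped between the groups and the sum of the 6 Ces2 genes was lower in Ccna2-KO. The Ces1 sum was 263, 402, 395 and 443 CPM in controls and 362, 361, 440.4 and 314 CPM in Ccna2-KO libraries. The Ces2 sum was 1013, 1335, 1643 and 1301 CPM in controls and 883, 755, 849 and 966 CPM in Ccna2-KO libraries. The Ces1 sums overlapped, with means of 376 ± 78.4 and 369 ± 52.3 CPM (SD, n = 4 each). Every Ces2 sum of the Ccna2-KO group was below every control, with means of 1323 ± 258 and 863 ± 87.3 CPM, 65.2% of control.

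The ratio of the Ces1 sum to the Ces2 sum was 0.285 ± 0.0448 in controls and 0.433 ± 0.0849 in Ccna2-KO libraries (SD, n = 4 each). The 2 groups overlapped in this ratio, because Ccna2-KO replicate 4, at 0.325, was below control replicate 4, at 0.341. The similar Ces1 sums covered unequal parts. Ces1f and Ces1g together were 308 ± 70.2 CPM in controls and 346 ± 53.2 CPM in Ccna2-KO libraries, whereas Ces1d and Ces1e together went from 67.8 ± 15.8 to 23.3 ± 1.44 CPM.

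The makeup of Ces1 differed as well, while the values within Ces2 were mixed. Ces1d was 10.7% to 15.7% of the Ces1 sum in controls and 2.96% to 5.18% in Ccna2-KO libraries. The ratio of Ces1g to Ces1d, which is not affected by library scaling, was 2.30, 4.30, 4.33 and 2.50 in controls and 13.5, 13.2, 21.2 and 8.85 in Ccna2-KO libraries. Within Ces2, the share of Ces2c was 37.9% to 43.1% in controls and 43.4% to 45.8% in Ccna2-KO libraries, a narrow gap. The share of Ces2a overlapped, at 23.9% to 32.5% in controls and 18.6% to 26.0% in Ccna2-KO libraries. The ratio of Ces2c to Ces2a overlapped too, at 1.17 to 1.80 and 1.67 to 2.46. That of Ces2f to Ces2b, both scarce, was separate, at 0.178 to 0.265 and 0.324 to 0.504. Ces2a, Ces2c and Ces2e together made up 96.4% to 98.0% of the Ces2 sum in controls and 97.1% to 97.6% in Ccna2-KO libraries.

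**Figure D3:**
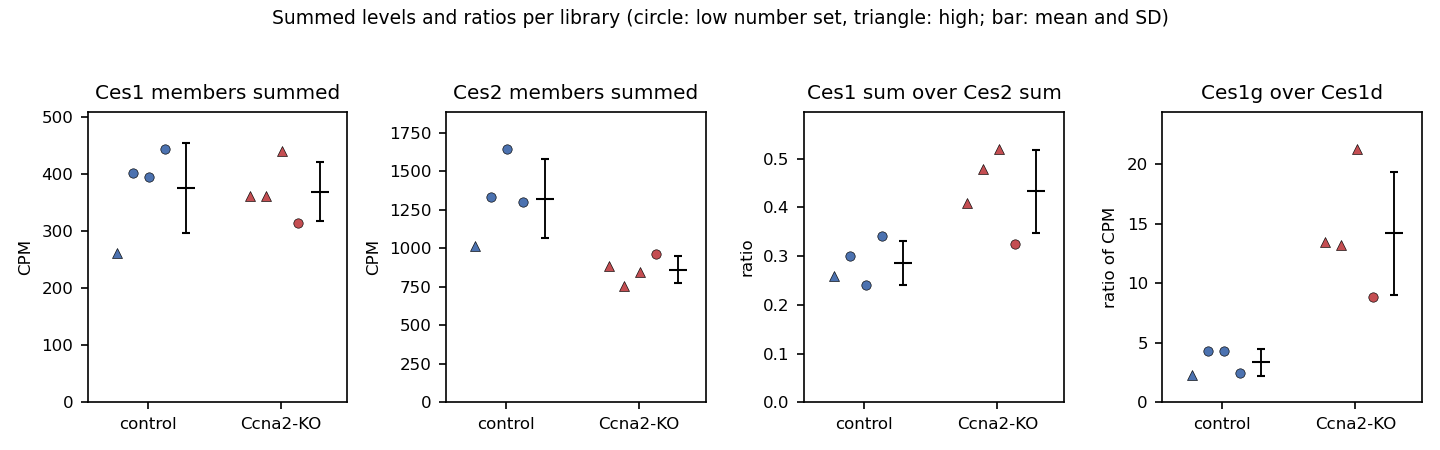
Summed level of the 4 Ces1 genes and of the 6 Ces2 genes (CPM), the ratio of the sums, and the ratio of Ces1g to Ces1d, in each library, with the mean and SD of each group of 4 (blue control, red Ccna2-KO; circles low, triangles high set). The Ces2 sum is at 755 to 966 CPM in Ccna2-KO libraries against 1013 to 1643 CPM in controls, while the Ces1 sums overlap.

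Levels of different genes were compared per kilobase of transcript, which was possible for 7 of the 10 because at least 80% of their count lay on transcripts of known length. In controls the order was Ces2c at 271 ± 59.6, Ces2a at 196 ± 54.5, Ces2e at 182 ± 26.9, Ces1f at 67.3 ± 12.9, Ces1g at 67.3 ± 18.7, Ces1d at 24.6 ± 6.80 and Ces2g at 6.22 ± 2.29 CPM per kb (SD, n = 4). Ranges of neighbours overlapped among Ces2c, Ces2a and Ces2e, and between Ces1f and Ces1g, and were separate elsewhere. In Ccna2-KO libraries the order was Ces2c at 195 ± 15.4, Ces2e at 133 ± 9.82, Ces2a at 92.7 ± 24.8, Ces1g at 83.6 ± 23.2, Ces1f at 68.3 ± 2.08, Ces1d at 7.19 ± 0.679 and Ces2g at 5.44 ± 0.293 CPM per kb. Ces2c then stood clear of Ces2e, and Ces1d was close to Ces2g. Ranges of neighbours overlapped between Ces2e and Ces2a, between Ces2a and Ces1g and between Ces1g and Ces1f, so the order among these was not resolved.

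The number sets were compared with genotype in the same fit, a contrast that was not itself used to choose the genes. The choice used the same 8 libraries, and the sets are spread unequally over the genotypes. The test may thus not be independent of that choice. Of the 10, only Ces2a passed the test, against 22.3% of all genes called in either direction and 9.43% called lower in the high set. It was lower in the high set (log2 fold change -0.63 ± 0.16 SE, adjusted p = 0.0243, edgeR's quasi-likelihood test). Leaving out control replicate 1 (adjusted p = 0.177), Ccna2-KO replicate 2 (0.0529) or Ccna2-KO replicate 4 (0.0903) ended that call. Without control replicate 1 the count of genes called between the sets was 86 in place of 3548, so this contrast rests on that library.

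Within each number set the groups were 3 controls against 1 Ccna2-KO library (low) and 1 control against 3 Ccna2-KO libraries (high). In both sets Ces1d, Ces1e, Ces2a, Ces2b, Ces2c and Ces2e were lower in Ccna2-KO, without overlap. With 1 library on one side, this only places that library beyond the 3 of the other group. The share of all genes that do so was not counted, so nothing is read from it. For Ces1d the log2 ratio of means was -1.68 in the low and -1.58 in the high set, and for Ces2a it was -0.74 and -0.80. For Ces2e it was -0.55 and -0.16, and for Ces2c -0.47 and -0.08, so most of the gap for these genes lay in the low set. Ces1f and Ces1g went opposite ways in the sets. With the set as a term in the fit over all 8 libraries, the genotype estimates were -1.63 ± 0.18 for Ces1d, -1.06 ± 0.15 for Ces1e, -0.77 ± 0.16 for Ces2a, -1.04 ± 0.21 for Ces2b and -0.35 ± 0.13 for Ces2e (log2 fold change ± SE).

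Apart from Ces2d-ps, described above, the other carboxylesterase genes on chromosome 8 were nearly silent. All 10 others, Ces2d-ps among them, had some count, and only Ces2d-ps passed the filter. Ces1c, which encodes the esterase secreted into plasma, had 1, 1, 0 and 1 counts in controls and 8, 9, 10 and 9 in Ccna2-KO libraries. That is 3 counts against 36, a ratio of 11.9 with a 95% counting interval of 3.75 to 60.3. The groups did not overlap (exact two-sided permutation test, p = 0.0286, the smallest that 4 against 4 allows; adjusted p = 0.129 over 6 such genes). Ces1b had 9 and 43 counts in all (exact permutation p = 0.0857, adjusted p = 0.129), and Ces1h 11 and 37 (exact permutation p = 0.114, adjusted p = 0.137). Ces2h went the other way with 20 and 9 counts (exact permutation p = 0.0571, adjusted p = 0.129), as did Ces3a with 24 and 9 (exact permutation p = 0.0857, adjusted p = 0.129). Ces3b had 4 and 6 counts (exact permutation p = 0.571, adjusted p = 0.571), and Ces1a had 0 and 2, Ces4a 1 and 0 and Ces5a 1 and 1. None passed after adjustment, which the design made nearly certain: with 6 genes and a smallest p of 0.0286, at least 4 of them had to reach that p to pass, and 1 gene alone would have an adjusted p of 0.171. At these counts a share of misassigned reads from the abundant copies could not be told apart from the gene's own reads.

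Cell types known for high carboxylesterase levels were checked by their own markers. Of the adipocyte markers, Lep and Retn were at 0, and Adipoq and Plin1 had 3 counts each over all 8 libraries. The summed adipocyte list was 177 to 206 CPM in controls and 60.0 to 69.6 CPM in Ccna2-KO libraries, nearly all of it Pck1. Pck1, phosphoenolpyruvate carboxykinase, is also expressed by gut epithelium, and fell from 190 ± 11.9 to 59.8 ± 5.40 CPM (SD, n = 4 each; adjusted p = 9.7e-05, edgeR's quasi-likelihood test). Of the hepatocyte markers, Fga, Fgb and Serpina1c were at 0 and Alb had 66 counts in all, and the summed list, mostly Tat, was 56.3 to 120 CPM in controls and 56.9 to 120 CPM in Ccna2-KO libraries. The summed stromal and endothelial list was 13.9 to 21.6 CPM in controls and 15.8 to 37.5 CPM in Ccna2-KO libraries, with Des higher and Pecam1 lower among 8 tested; the call for Pecam1 was lost without any 1 Ccna2-KO library or control replicate 3. Small intestinal enterocyte markers moved with genotype: 6 of 16 tested rose and none fell (3 rose without Ccna2-KO replicate 1 or without Ccna2-KO replicate 3), with a summed 1141 to 1520 CPM in controls and 1546 to 1808 CPM in Ccna2-KO libraries. Sis, sucrase-isomaltase, rose to 35.0 CPM from 5.97 in controls (log2 fold change 2.55 ± 0.32 SE, adjusted p = 0.00185). The part of these markers in the carboxylesterase values was not tested.

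Other enzymes that hydrolyse esters mostly did not pass. Of 24 tested esterases and triacylglycerol lipases, 2 rose and 1 fell, with a median log2 fold change of 0.02; over all genes 6.4% rose and 5.71% fell. Without control replicate 1, 4 rose and 4 fell. Aadac, arylacetamide deacetylase, which shares drug substrates with the carboxylesterases, fell from 9.79 ± 5.18 to 3.12 ± 0.348 CPM (SD, n = 4 each; log2 fold change -1.65 ± 0.32 SE, adjusted p = 0.0114, edgeR's quasi-likelihood test). Ptgr1, a prostaglandin reductase that the list also held, rose from 14.2 to 44.7 CPM (adjusted p = 0.015). Pnliprp2, a pancreatic lipase-related protein, rose from 0.985 to 2.43 CPM (adjusted p = 0.0431), a call that was lost without any single library other than control replicate 1 (adjusted p = 0.0515 to 0.123).

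Triacylglycerol synthesis and packaging, the opposite side of the lipid balance from the lipases, gave calls in 1 direction: 4 of 23 genes rose and none fell (median log2 fold change 0.20). Without control replicate 1, 7 rose and 2 fell, and without control replicate 4, 2 rose. Mogat2, which makes diacylglycerol from absorbed monoacylglycerol, rose from 7.08 ± 1.43 to 19.2 ± 5.17 CPM (SD, n = 4 each; log2 fold change 1.44 ± 0.23 SE, adjusted p = 0.00478). Apob, the structural protein of chylomicrons, rose from 179 to 377 CPM (adjusted p = 0.0175, and 0.0566 without control replicate 4). Acsl5, an acyl-CoA synthetase, rose from 97.0 to 144 CPM (adjusted p = 0.0114). Mttp, which loads lipid onto Apob, was the fourth, at 1.59 and 4.31 CPM. Mogat2, Apob and Mttp are themselves strong in the small intestine. Of its 16 tested markers, 6 rose and 10 were not called. Whether these rises go together was not tested.

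Among 18 tested genes of retinoid metabolism, 4 rose and 1 fell (median log2 fold change 0.18). None of these rose with Ccna2-KO replicate 3 or control replicate 4 left out, and 1 with Ccna2-KO replicate 1, Ccna2-KO replicate 2 or control replicate 2 left out. Dhrs3, which reduces retinal to retinol, fell to 30.3 CPM from 47.2 in controls (log2 fold change -0.64 ± 0.12 SE, adjusted p = 0.0104). Dhrs9, a retinol dehydrogenase, rose from 17.2 to 44.6 CPM (adjusted p = 0.0207, and 0.0534 to 0.0554 without Ccna2-KO replicate 3 or control replicate 4). Bco1, which cleaves β-carotene into retinal, rose from 1.98 to 4.04 CPM (adjusted p = 0.0229), a call kept only when control replicate 1 or Ccna2-KO replicate 4 was the library left out.

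The nuclear receptors and other regulators of drug metabolism had a median log2 fold change of -0.25 over 24 tested genes. Nr1i2, the xenobiotic receptor PXR, was at 111 and 97.8 CPM (adjusted p = 0.233). Nr1i3, the receptor CAR, was at 2.25 and 3.63 CPM (adjusted p = 0.294, and 0.0419 without control replicate 1). Hnf4a was at 989 ± 162 and 1000 ± 118 CPM (adjusted p = 0.963). Ppara, a fatty acid receptor, was at 78.6 ± 31.3 and 40.4 ± 5.50 CPM (adjusted p = 0.068, and 0.00017 without control replicate 1).

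Of 18 tested genes that PXR and CAR are known to switch on, 1 rose and 2 fell (median log2 fold change 0.13), and 2 and 4 without control replicate 1. Cyp3a44 fell from 1.98 to 0.124 CPM (adjusted p = 0.00633) and Cyp3a25 from 1.53 to 0.244 CPM (adjusted p = 0.0075). Both are steroid and drug oxidases with near-identical relatives, so their separate values are uncertain. Gsta1, a glutathione transferase, rose from 43.7 to 91.6 CPM (adjusted p = 0.0198, but 0.0585 with the number set as a term and 0.0604 without control replicate 4). No theme is named for the lists beyond these counts.

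**Figure D4:**
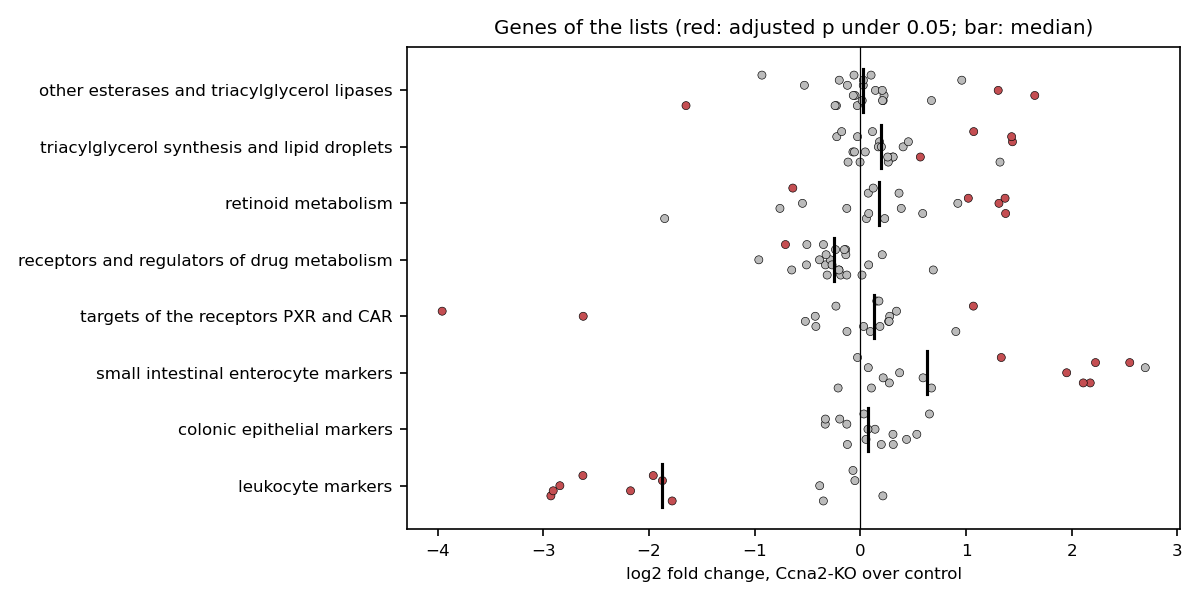
Log2 fold change, Ccna2-KO over control, of each tested gene in 8 of the lists (points; red where the adjusted p of edgeR's quasi-likelihood test is below 0.05) with the list's median (black bar). The median of the leukocyte markers lies far to the left (-1.87), though 5 of the 13 are not called and lie between -0.38 and 0.21. The median of the small intestinal enterocyte markers lies to the right (0.63), and those of the other lists lie between -0.25 and 0.20.

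Profiles over the 8 libraries were compared by the root mean square difference of centred log2 CPM, among 10985 genes. For the gene of each family with the highest mean CPM, not corrected for transcript length, the genes with the most similar profile were found. For Ces1g these were Dnase1l2 (0.115), Fam3c (0.119), Smim3 (0.142), Itpripl2 (0.177) and Lipa (0.179), against a median of 0.487 over all genes. Its neighbour Ces1f was at 0.333 and Ces1d at 1.12, so Ces1g was further from Ces1d than from most genes. For Ces2c they were Adprm (0.0842), Neat1 (0.0922), Ncoa1 (0.0953), Adap1 (0.0967) and Lmbr1l (0.0975), against a median of 0.384. Ces2e, at 0.0938, was as close to Ces2c as these, whereas Ces2a, at 0.387, was no closer than the median gene.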

How the data were processed

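Reads from 8 libraries were quantified by the authors with kallisto against GRCm38/mm10, per the submitters' processing notes (which name no version). The deposited table holds estimated counts per transcript, for 107193 transcripts; they need not be whole and were rounded after summing per symbol. The 687 transcripts without a symbol, 3.19% to 5.51% of a library's count, were left out.

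Groups were compared with edgeR 4.0.16 (quasi-likelihood, TMM, filterByExpr) in R 4.3.3 with limma 3.58.1, adjusted over 15893 genes by Benjamini-Hochberg. Fold changes use edgeR's default prior, and CPM are on TMM-scaled library sizes. The SE of an edgeR estimate is its absolute log2 fold change divided by the square root of the test's F statistic. The 6 scarce carboxylesterases with at least 10 counts were compared by exact permutation of CPM over libraries. The number sets were fitted with genotype. Sequence shared between copies was counted in 31-base words of GENCODE transcripts matched to curated RefSeq ones. Counting intervals cover counting error only. Scripts were tested on simulated data. Alternatives were other scalings, filters, DESeq2 1.42.0, limma voom, a replicate block, the number set as a term and each library left out.

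The members and lists were chosen with earlier results of these data known. The text names all 10 members, every other carboxylesterase with any count, Ccna2, up to 3 called genes with the smallest adjusted p per list, 4 receptors whatever their result, and 5 genes of similar profile for 2 members. Mttp, Fhod1, the leukocyte markers not called, defining markers and list genes at 0 were named after their values were seen. Plin4 (adjusted p = 0.0324) and Cps1 (adjusted p = 0.0468) rose in the adipocyte and hepatocyte lists, calls lost without most single libraries, Cd2, Cd3e and Cd3g fell in the leukocyte list (adjusted p = 0.00353 to 0.00458), and Npc1l1 (adjusted p = 0.00511) and Treh (adjusted p = 0.011) rose in the small intestinal list, all by edgeR. One list gene that met the naming rule is not reported here.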

Additional observations from a re-analysis of the deposited data

Results flagged for a closer look

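Ces1d had 1 control library far from the others: control replicate 4 was at 69.7 CPM, and its gap to the next control was 0.884 of the group's range. In all 26 groups of 4 were looked at in this way, and chance alone marks about 1 in 20. Without that library the log2 fold change of Ces1d was -1.57, against -1.78 with it.

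Ces1f, Ces1g and the Ces1 sum went opposite ways in the number sets, with no overlap in either set. The log2 ratio of means, Ccna2-KO over control, was -0.139 in the low set and 0.438 in the high set for Ces1f. It was -0.344 and 1.2 for Ces1g, and -0.396 and 0.562 for the Ces1 sum. The low set holds 1 Ccna2-KO library and the high set 1 control, and the difference between the sets was not tested.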

How the results depend on the processing

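Over 16 alternatives per gene, each of the 10 fold changes moved by less than the spread between libraries; signs changed in 9 of 160 cases, 7 of them for Ces1f and 1 each for Ces2f and Ces2g. The log2 ratio of the Ces2 sum stayed between -0.72 and -0.42 (main -0.62), that of Ces1 to Ces2 between 0.50 and 0.72, and the Ces1 sum between -0.16 and 0.08. Over all genes, the calls between genotypes (1924) were 2949 by DESeq2, 2892 with the number set as a term and 987 with the replicate block, and ran between 972, with Ccna2-KO replicate 3 left out, and 4627, with control replicate 1 left out. Calls between the sets (3548) ran between 86, with control replicate 1 left out, and 5704, with Ccna2-KO replicate 4 left out. The cause was not tested. Same-numbered libraries did not deviate together (correlations -0.0694, -0.352, -0.263 and 0.153). These values lie within those of the differently numbered pairs, -0.432 to 0.417. No pairing by replicate number was seen, but with so wide a spread the check cannot exclude one. With the replicate block the log2 ratio of the Ces2 sum was -0.60. Depth limits Ces2f and the scarce copies; with 4 libraries a group, small differences were not detectable.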
